A study of Mus musculus with 12 samples.

Results

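The genes described here are 10 genes of prostaglandin synthesis, breakdown and reception, taken by symbol from the 54532 genes counted in each colon library. They are Pla2g4a, Ptgs1, Ptgs2, Ptges, Ptgds, Ptgis, Tbxas1, Hpgd, Ptger2 and Ptger4. Prostaglandins are lipid signals made from arachidonic acid, which a phospholipase frees from membranes and a cyclooxygenase turns into prostaglandin H. Separate synthases then make the E, D and I forms and thromboxane, a dehydrogenase inactivates them, and receptors on nearby cells read them. In the colon, prostaglandin E is known both for keeping up the epithelium and for its part in inflammation.

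RNA was sequenced from the colons of male C57BL/6 mice, 3 animals in each of 4 groups, out of 8 mice treated per group. The mice were 6 weeks old at delivery, and the labels give them no genetic change. The Con group got no DSS (the methods give it the vehicle by gavage and the labels call it untreated). The DSS group drank 3% (w/v) dextran sulfate sodium, a polymer that injures the colon epithelium, for 5 days. The UA+DSS group had the same DSS and 200 mg/kg ursolic acid, a plant triterpenoid, by daily gavage starting 1 day before DSS. The DSS+UA group had the same DSS and the same daily dose of ursolic acid starting 3 days after DSS began. The sources differ on how many days ursolic acid was given. A library is named here by its group and replicate number, so that DSS 2 is replicate 2 of the DSS group.

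Total counts were 15566216 to 19498383 per library, and the 10 genes took 0.0232% to 0.0706% of them. Levels are given as CPM, counts relative to a library size scaled by TMM factors. All 12 libraries entered 1 edgeR model of 17658 genes. Groups were set against each other by the quasi-likelihood test of edgeR, and p-values were adjusted over those genes after Benjamini and Hochberg. A gene was called raised or lowered at an adjusted p under 0.05. The markers of colon absorptive cells were present in every library. The libraries DSS 2 (a summed level of 10 neutrophil genes of 19303 CPM against 1077 and 1260 in DSS 1 and DSS 3), DSS 3 (8 genes of the exocrine pancreas at 15518 CPM against 33.2 and 94.6) and Con 1 (Hox genes of the far end of the colon, given below) stood apart from their groups. Since RNA of whole colon was measured, fewer cells of a type and less RNA per cell cannot be told apart.

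Of the 10 genes, 9 passed the filter on low counts. Ptgds, the lipocalin-type prostaglandin D synthase, had 1 count in UA+DSS 2 and 0 in the other 11 libraries, and a count of 0 allows a level of up to 0.154 to 0.193 CPM (3 counts of the library, counting error only). It was not tested. Compared per length of merged exons, Hpgd stood first among the other 9 in Con, with 146 ± 46.8 CPM per kb (SD, n = 3), followed by Pla2g4a at 11.3 ± 1.96, Ptger4 at 9.04 ± 3.90 and Ptgs1 at 6.99 ± 2.63 CPM per kb. The levels of Ptges, Ptgis, Ptgs2, Ptger2 and Tbxas1 in Con were 2.68, 2.17, 1.53, 0.490 and 0.459 CPM per kb. In DSS the level of Ptgs2 was 28.4 ± 15.0 and that of Ptges 17.1 ± 10.7 CPM per kb, while Hpgd was at 39.3 ± 4.83 CPM per kb. The breakdown enzyme therefore stood first in every group, but its distance from the inducible synthesis enzymes was smaller in DSS than in the 3 other groups.

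**Figure D1:**
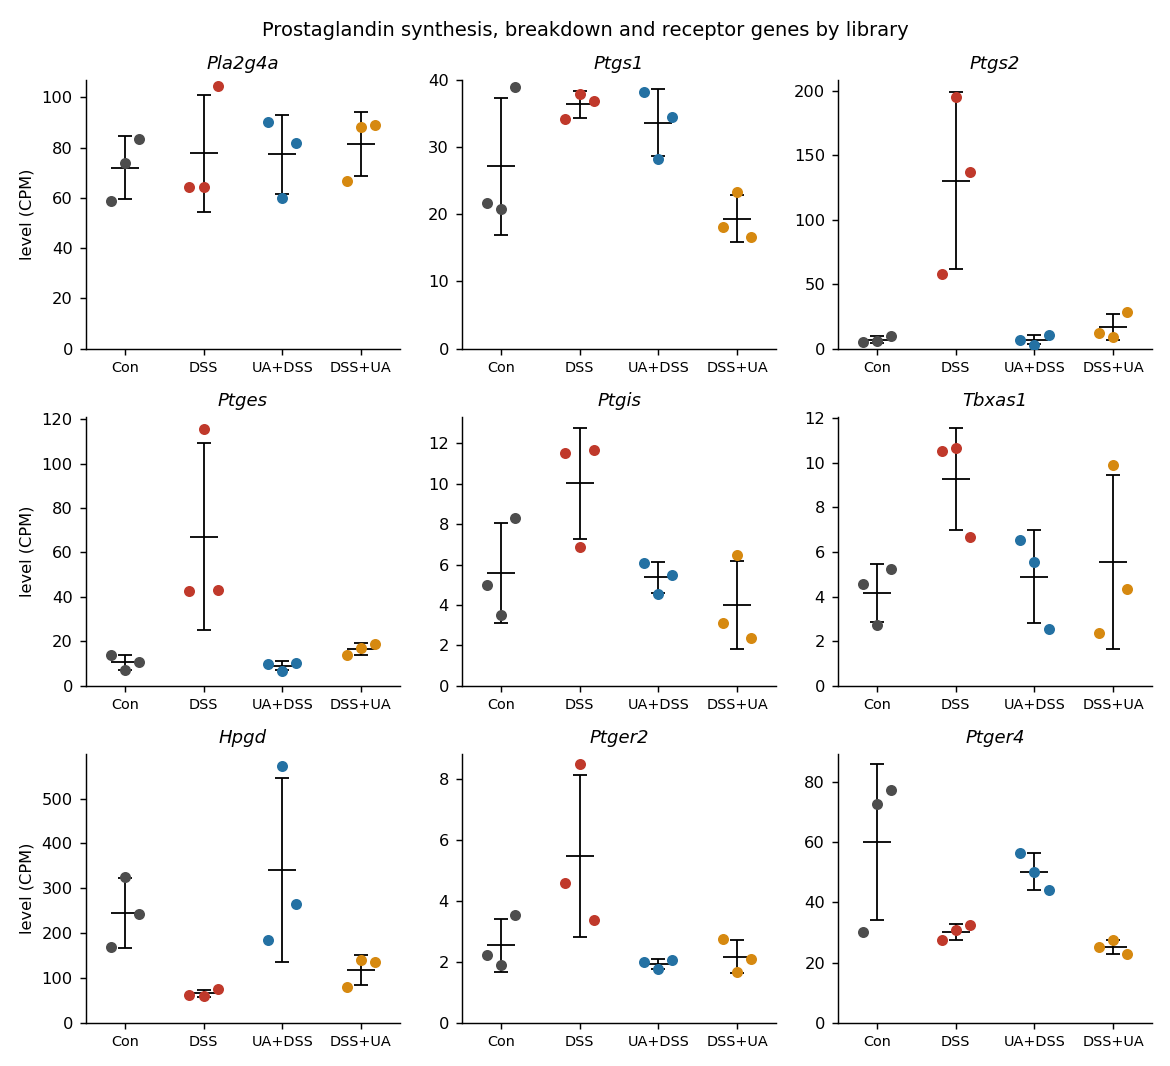
Level in CPM (vertical axis) of the 9 tested genes in each library, by group, with 3 points per group and the mean and SD as horizontal bars and whiskers. The 3 DSS points lie above all others for Ptgs2 and Ptges and below all others for Hpgd, and the points of the 4 groups overlap for Pla2g4a.

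Pla2g4a, the cytosolic phospholipase that frees arachidonic acid (chromosome 1:149829618-149961290, minus strand, GRCm38, ENSMUSG00000056220), did not pass the test in any of the 6 comparisons. Its level was 58.8, 73.9 and 83.6 CPM in Con 1, 2 and 3, and 64.2, 64.3 and 105 CPM in DSS 1, 2 and 3. In UA+DSS it was 90.1, 60.0 and 81.7 CPM and in DSS+UA 66.6, 88.3 and 89.1 CPM. The 4 groups overlapped throughout, with means between 72.1 and 81.3 CPM. The log2 fold change of DSS against Con was 0.11 (SE 0.23, edgeR adjusted p = 0.755).

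Ptgs2, the inducible cyclooxygenase, lies 138.7 kb from Pla2g4a on chromosome 1 (1:150100031-150108227, plus strand, ENSMUSG00000032487). It had the largest difference of the 9 genes between DSS and Con. Its level was 5.02, 6.16 and 9.84 CPM in the Con libraries and 58.1, 195 and 137 CPM in the DSS libraries. The groups did not overlap, and the lowest DSS library was well above the highest Con library. The mean rose from 7.0 ± 2.52 to 130 ± 68.7 CPM, an 18.6-fold difference (log2 fold change 4.21, SE 0.63, edgeR adjusted p = 0.00279). Ptgs2 in UA+DSS was at 6.99, 3.06 and 10.3 CPM, overlapping with Con. In DSS+UA it was 12.4, 9.16 and 28.1 CPM, below every DSS library and overlapping with Con, with DSS+UA 3 the highest. Against DSS, Ptgs2 was 19.1-fold lower in UA+DSS (log2 fold change -4.25, SE 0.63, edgeR adjusted p = 0.00800) and 7.86-fold lower in DSS+UA (-2.98, SE 0.59, adjusted p = 0.0246). The latter call of Ptgs2 was lost without DSS 2 (-2.55, adjusted p = 0.0583) and without DSS+UA 1, 2 or 3 (-2.79, -2.72 and -3.58, adjusted p = 0.0543, 0.0842 and 0.0649). In the order DSS, DSS+UA, Con, UA+DSS, the lower 3 groups did not differ past the threshold. The log2 fold change of UA+DSS against DSS+UA was -1.28 (SE 0.57, adjusted p = 0.145) and that of DSS+UA against Con 1.24 (SE 0.57, adjusted p = 0.146).

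Ptges, the inducible synthase that turns prostaglandin H into prostaglandin E (2:30889471-30929863, minus strand, ENSMUSG00000050737), was ordered over the groups as Ptgs2 was. Its level was 13.7, 7.04 and 10.9 CPM in Con and 42.6, 116 and 43.0 CPM in DSS. All DSS libraries were above all Con libraries, and DSS 2 was above both other DSS libraries. The mean rose 6.37-fold (log2 fold change 2.67, SE 0.41, edgeR adjusted p = 0.00275). In UA+DSS the level was 9.94, 6.56 and 10.3 CPM and in DSS+UA 13.6, 17.0 and 19.0 CPM, so neither group overlapped with DSS or with the other. Against DSS, Ptges was 7.50-fold lower in UA+DSS (log2 fold change -2.91, SE 0.41, adjusted p = 0.00725) and 4.06-fold lower in DSS+UA (-2.02, SE 0.40, adjusted p = 0.0220). The difference between UA+DSS and DSS+UA did not pass the test (-0.88, SE 0.39, adjusted p = 0.139).

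Without DSS 2, the library with the high neutrophil genes, the log2 fold change of DSS against Con was 3.80 for Ptgs2 (edgeR adjusted p = 0.00515) and 2.02 for Ptges (adjusted p = 0.00225), and the values of Ptges against DSS were -2.26 in UA+DSS (adjusted p = 0.00474) and -1.36 in DSS+UA (adjusted p = 0.0386). The call of Ptges in DSS+UA against DSS was lost without DSS+UA 1, 2 or 3 (-1.89, -2.08 and -2.12, largest adjusted p 0.0975). Without DSS 3 these were 4.18 and 2.91 for Ptgs2 and Ptges, and without Con 1 they were 4.02 and 2.90, all past the threshold.

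Hpgd, the dehydrogenase that inactivates prostaglandins (8:56294585-56321043, plus strand, ENSMUSG00000031613), went the other way. Its level was 168, 325 and 243 CPM in Con and 62.0, 60.9 and 75.5 CPM in DSS. All 3 DSS libraries were below all Con libraries and lay close together. The mean was 3.71-fold lower in DSS (log2 fold change -1.89, SE 0.40, edgeR adjusted p = 0.00813). In UA+DSS it was 185, 574 and 265 CPM, with UA+DSS 2 the highest of the 12 libraries. In DSS+UA it was 79.7, 140 and 135 CPM, above every DSS library and below every Con library. Hpgd was 5.16-fold higher in UA+DSS than in DSS (log2 fold change 2.37, SE 0.41, adjusted p = 0.00998), and without UA+DSS 2 the value for Hpgd was 1.77 (adjusted p = 0.0394). The difference between DSS+UA and DSS did not pass the test (0.84, SE 0.39, adjusted p = 0.178), nor did that between DSS+UA and Con (-1.05, SE 0.39, adjusted p = 0.0826). The log2 fold change of DSS against Con was -1.83 without DSS 2, -2.0 without DSS 3 and -2.10 without Con 1 for Hpgd, each past the threshold.

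**Figure D2:**
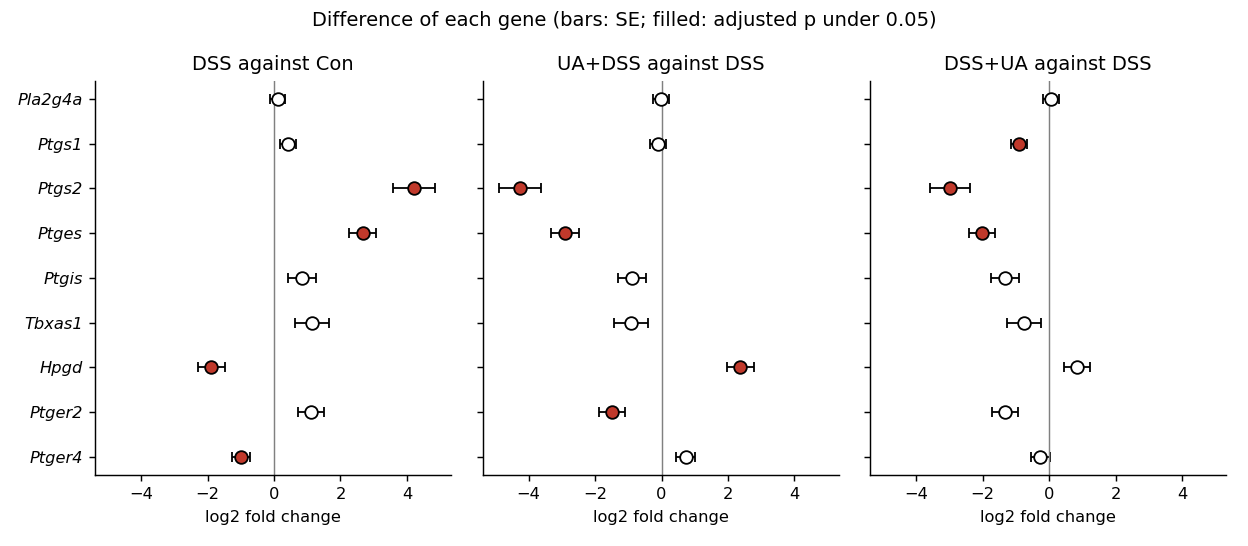
Log2 fold change (horizontal axis) of the 9 tested genes in DSS against Con, UA+DSS against DSS and DSS+UA against DSS, with the SE as whiskers and filled points where the edgeR adjusted p is under 0.05. Ptgs2 and Ptges lie right of 0 in the first panel and left of it in the other 2, Hpgd the reverse.

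The sequences before the starts of these 3 genes are shown because their levels moved with or against each other over the groups. They are the 250 bases upstream of the RefSeq start on the gene's strand (GRCm38.p6). For Ptgs2 this is chr1:150099781-150100030 (plus), for Ptges chr2:30903298-30903547 (minus, inside the longer gene model of the annotation used above) and for Hpgd chr8:56294302-56294551 (plus). Capitals mark a C/EBP palindrome in Ptgs2 and a long GC box in Ptges and Hpgd.
Ptgs2: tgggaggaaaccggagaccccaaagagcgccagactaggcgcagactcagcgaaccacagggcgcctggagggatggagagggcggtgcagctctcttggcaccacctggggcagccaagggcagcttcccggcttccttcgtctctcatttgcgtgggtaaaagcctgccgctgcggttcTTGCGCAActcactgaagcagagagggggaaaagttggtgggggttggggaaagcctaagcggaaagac
Ptges: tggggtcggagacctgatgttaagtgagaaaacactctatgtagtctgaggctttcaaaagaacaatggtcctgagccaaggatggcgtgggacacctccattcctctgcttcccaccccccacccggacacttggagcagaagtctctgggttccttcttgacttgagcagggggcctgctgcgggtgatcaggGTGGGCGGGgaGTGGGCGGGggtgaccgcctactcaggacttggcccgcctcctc
Hpgd: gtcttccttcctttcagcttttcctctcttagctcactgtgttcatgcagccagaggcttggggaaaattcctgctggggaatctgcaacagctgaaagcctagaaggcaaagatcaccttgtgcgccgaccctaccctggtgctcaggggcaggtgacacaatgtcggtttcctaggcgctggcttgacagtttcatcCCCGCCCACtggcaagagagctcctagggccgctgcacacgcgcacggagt
The palindrome TTGCGCAA stood at -69 to -62 of Ptgs2, and 54 of 32851 mouse promoter windows of the same length (0.164%) hold it. The long GC box GTGGGCGGG was found at -55 to -47 and again at -44 to -36 of Ptges, and 864 of the windows (2.63%) hold it on either strand. In Hpgd its letters lay on the opposite strand at -51 to -43. Each of these long matches contains the short GC box GGGCGG, which 32.7% of the windows hold and which Ptgs2 has at -170 to -165. RefSeq windows were matched for 9 of the 10 genes. The CRE TGACGTCA, its first 5 letters TGACG, the NF-kappaB letters GGGACTTTC and the E-box CACGTG, searched on both strands, had no match in these windows. Shares of all windows with them were 1.55%, 17.8%, 0.289% and 6.02%. Bases after the RefSeq start were not searched, so a lack of a match holds for these 250 bases alone. A match is a run of letters and was not tested for binding.

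Ptgs1, the constitutive cyclooxygenase (2:36230426-36252272, plus strand, ENSMUSG00000047250), was 21.7, 20.9 and 38.9 CPM in Con and 34.2, 38.0 and 37.0 CPM in DSS. Con 3 was above every DSS library, so the groups overlapped, and the log2 fold change of 0.42 (SE 0.24, edgeR adjusted p = 0.205) did not pass the test. In UA+DSS the level was 38.2, 28.3 and 34.5 CPM and in DSS+UA 18.1, 23.3 and 16.7 CPM. Every DSS+UA library was below every DSS and every UA+DSS library. Ptgs1 was 1.88-fold lower in DSS+UA than in DSS (log2 fold change -0.91, SE 0.24, adjusted p = 0.0457) and 1.74-fold higher in UA+DSS than in DSS+UA (0.80, SE 0.24, adjusted p = 0.0438). Both p-values were near the threshold, and the first was lost under 13 of 21 other settings, among them the removal of any DSS, UA+DSS or DSS+UA library or of Con 2 (-1.11 to -0.80). The second was lost under 11, among them the removal of DSS 1, DSS 3, DSS+UA 1, DSS+UA 3 or any UA+DSS library (0.68 to 0.91).

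Within each library, the ratio of Ptgs2 to Ptgs1 per length sets the inducible against the constitutive cyclooxygenase. It was 0.196, 0.250 and 0.214 in Con and 1.44, 4.35 and 3.15 in DSS. The inducible form was thus the more abundant one in all 3 DSS libraries and the less abundant one in all Con libraries. In UA+DSS the ratio was 0.155, 0.0917 and 0.253, and in DSS+UA 0.581, 0.333 and 1.43. DSS+UA 3 was the only library outside the DSS group with a ratio over 1. The ratio of Ptges to Hpgd, one that makes and one that removes prostaglandin E, was 0.00927 to 0.0348 in Con, 0.244 to 0.813 in DSS, 0.00490 to 0.0231 in UA+DSS and 0.0518 to 0.0733 in DSS+UA. DSS and DSS+UA overlapped with no other group, while Con and UA+DSS overlapped with each other.

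**Figure D3:**
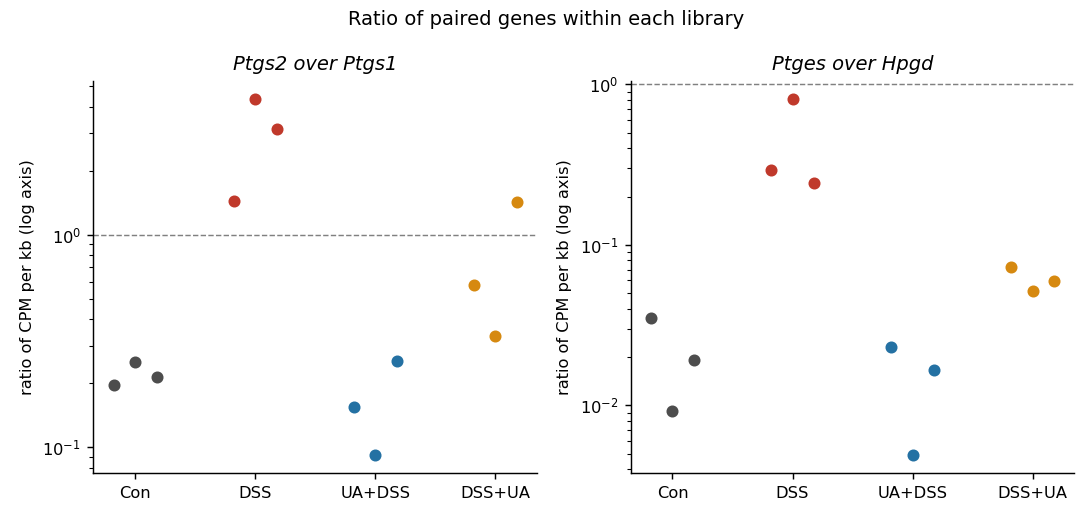
Ratio of CPM per kb (vertical log axis) of Ptgs2 to Ptgs1 and of Ptges to Hpgd in each library, by group, with a dashed line at 1. The DSS libraries have the highest Ptges to Hpgd ratios (0.244 to 0.813), followed by DSS+UA (0.0518 to 0.0733).

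The synthases of prostacyclin and thromboxane were low in all groups. Ptgis, the prostacyclin synthase (2:167191805-167240604, minus strand, ENSMUSG00000017969), was 4.97, 3.49 and 8.29 CPM in Con and 11.5, 6.86 and 11.7 CPM in DSS. Con 3 was above DSS 2, so these groups overlapped (log2 fold change 0.84, SE 0.42, edgeR adjusted p = 0.151). In UA+DSS it was 6.09, 4.56 and 5.48 CPM and in DSS+UA 3.11, 6.50 and 2.38 CPM, both groups below every DSS library. The log2 fold changes of Ptgis against DSS were -0.90 (SE 0.42, adjusted p = 0.153) and -1.33 (SE 0.42, adjusted p = 0.0705), neither past the threshold.

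Tbxas1, the thromboxane synthase (6:38875404-39084585, plus strand, ENSMUSG00000029925), was 4.55, 2.72 and 5.24 CPM in Con and 10.5, 10.7 and 6.66 CPM in DSS. The DSS libraries were all above the Con libraries, but the log2 fold change of 1.15 (SE 0.51, edgeR adjusted p = 0.115) did not pass the test. In UA+DSS the level was 6.54, 5.56 and 2.55 CPM, below every DSS library, and in DSS+UA 2.37, 9.90 and 4.32 CPM, overlapping with DSS. The log2 fold changes of Tbxas1 against DSS were -0.93 (SE 0.51, adjusted p = 0.222) in UA+DSS and -0.75 (SE 0.51, adjusted p = 0.343) in DSS+UA.

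The 2 receptors of prostaglandin E among the genes, both coupled to the rise of cyclic AMP, differed in order. Ptger2, the EP2 receptor gene (14:44988195-45003820, plus strand, ENSMUSG00000037759), was 2.22, 1.89 and 3.53 CPM in Con and 4.57, 8.47 and 3.38 CPM in DSS. DSS 3 was below Con 3, and the log2 fold change of 1.10 (SE 0.39, edgeR adjusted p = 0.0563) was just outside the threshold. In UA+DSS it was 1.99, 1.75 and 2.07 CPM and in DSS+UA 2.74, 1.67 and 2.11 CPM, all below every DSS library. Ptger2 was 2.82-fold lower in UA+DSS than in DSS (log2 fold change -1.49, SE 0.40, adjusted p = 0.0268), while in DSS+UA the log2 fold change of -1.33 (SE 0.39, adjusted p = 0.0588) did not pass. Without DSS 2 the value for UA+DSS against DSS was -1.04 (adjusted p = 0.0959), and without UA+DSS 1, 2 or 3 it was -1.51, -1.42 and -1.55 (adjusted p = 0.0672, 0.106 and 0.0713), so that this call of Ptger2 was lost when any 1 of these libraries was left out.

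Ptger4, the EP4 receptor gene (15:5206661-5244187, minus strand, ENSMUSG00000039942), was 30.3, 72.8 and 77.3 CPM in Con and 27.3, 31.0 and 32.4 CPM in DSS. Con 1 lay within the DSS range and the other Con libraries were far above it. Ptger4 was 1.99-fold lower in DSS (log2 fold change -0.99, SE 0.28, edgeR adjusted p = 0.0254), and without Con 1 the value was -1.31 (adjusted p = 0.00314). The call was lost with limma-voom, with only the 2 groups compared and without Con 2, Con 3, DSS 1 or DSS 2 (largest adjusted p 0.0988), with values of -0.83, -0.77, -0.92 and -1.01 without these libraries. In UA+DSS it was 56.2, 50.2 and 44.0 CPM, above every DSS library, with a log2 fold change of 0.73 (SE 0.28, adjusted p = 0.0899) that did not pass. In DSS+UA it was 25.3, 27.4 and 22.7 CPM, overlapping with DSS (-0.27, SE 0.28, adjusted p = 0.554) and below every Con library. Ptger4 was 2.39-fold lower in DSS+UA than in Con (-1.26, SE 0.28, adjusted p = 0.0153), the only call of the 9 genes in that comparison, and 1.99-fold higher in UA+DSS than in DSS+UA (1.00, SE 0.28, adjusted p = 0.0354). The former was lost without Con 3 (-1.02, adjusted p = 0.0538) or DSS+UA 3 (-1.17, adjusted p = 0.0636) and with the position score described below as a covariate (-0.48, adjusted p = 0.0832). Of its 50-base stretches, 14.4% also occur in other genes, mainly the overlapping Ttc33 on the opposite strand (312 to 499 counts against 410 to 1445 for Ptger4), and whether counting used strand is not given in the sources used here.

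Read against all genes, the counts of calls were as follows. In DSS against Con, 2 of the 9 genes were raised and 2 lowered, 4 of 9 where 26.5% of all tested genes were called (13.9% raised and 12.6% lowered). For 4 of the 9 there was no overlap (41.3% of all genes), and the median log2 fold change was 0.84 against -0.03 over all genes. Set against DSS, UA+DSS had 1 gene raised and 3 lowered, where 18.7% of all genes were called (8.21% raised and 10.5% lowered), and 7 did not overlap (42.8% of all genes), with a median of -0.90 against -0.02. For DSS+UA against DSS, 3 genes were lowered and 0 raised, where 7.54% of all genes were called (5.0% lowered and 2.54% raised), and 6 did not overlap (34.7%), with a median of -0.91 against 0.02. These comparisons share the DSS libraries.

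Between the ursolic acid groups, in UA+DSS against DSS+UA, Ptgs1, Hpgd and Ptger4 were raised and no gene was lowered, where 16.8% of all genes were called (7.54% raised and 9.23% lowered), and 4 of the 9 did not overlap (45.3% of all genes). Hpgd was 2.88-fold higher in UA+DSS (log2 fold change 1.53, SE 0.40, edgeR adjusted p = 0.0270), and without UA+DSS 2 the value was 0.92 (adjusted p = 0.114). For DSS+UA against Con, 1 of the 9 was called and 2 did not overlap, where 18.1% of all genes were called (9.13% raised and 8.95% lowered) and 38.9% did not overlap. For UA+DSS against Con, edgeR called 0 of the 9 genes and found 0 at an unadjusted p under 0.05, and DESeq2 and limma-voom also called 0. Over all genes edgeR called 1 (0.00566%) and DESeq2 372 (179 raised and 193 lowered). The libraries of UA+DSS and Con overlapped for all 9 genes where 20.6% of all genes did not overlap. The log2 fold changes in that comparison ran from -0.39 for Ptger2 (SE 0.39) to 0.48 for Hpgd (SE 0.39).

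Markers of several other cell types also differed between the groups. The summed level of the 10 neutrophil markers was 221 to 288 CPM in Con, 1077 to 19303 in DSS, 197 to 552 in UA+DSS and 1040 to 1264 in DSS+UA. Much of it in Con and UA+DSS was 1 gene, Cd177, at 126 to 274 and 159 to 520 CPM. Cd177 was at 135 to 285 CPM in DSS and 199 to 629 CPM in DSS+UA. Without Cd177, left out after its values were seen, the sums were 10.5 to 115, 943 to 19017, 31.2 to 127 and 411 to 1042 CPM in the same order. In DSS against Con, 8 of them were raised, and in UA+DSS against DSS 9 were lowered. The neutrophil genes S100a8 and Cxcr2 were at 0 to 0.277 and 0 to 0.0517 CPM in Con. For the 10 macrophage and monocyte markers the sums were 228 to 552, 1517 to 3875, 430 to 931 and 593 to 1666 CPM in the same order, with 9 raised in DSS against Con. The 8 fibroblast markers summed to 1085 to 1852 in Con, 3300 to 7020 in DSS, 630 to 1666 in UA+DSS and 987 to 2390 CPM in DSS+UA, with 7 raised in DSS against Con. The highest sum of each of these 3 lists was in a DSS library, as were the highest levels of Ptgs2, Ptges and Ptger2, and the neutrophil and macrophage sums of DSS overlapped with those of DSS+UA. The part of cell makeup in the levels was not tested.

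The 9 colonocyte markers, the surface epithelium in which Hpgd is known to be made, summed to 5781 to 14137 CPM in Con, 2332 to 6735 in DSS, 12230 to 16425 in UA+DSS and 4592 to 7672 in DSS+UA. Of these, 1 was lowered in DSS against Con and 3 were raised in UA+DSS against DSS. The sum was highest in UA+DSS 2, as Hpgd was, where Car1 made up 9357 of its 16425 CPM. Without Car1, left out after its values were seen, the sums were 5012 to 10341, 2130 to 5091, 6492 to 7628 and 3879 to 6987 CPM in the same order, with Con 2 the highest. For Ptgs1, 7 tuft cell markers summed to 23.9 to 68.2, 33.4 to 35.0, 32.9 to 41.6 and 12.6 to 18.5 CPM over the groups in that order, and Il25 among them had 0 counts in 7 of the 12 libraries. The 8 smooth muscle markers summed to 1341 to 4071, 797 to 1744, 1411 to 2812 and 529 to 1036 CPM, and Con 3, the highest, also had the highest Ptgs1. The 8 endothelial markers ran 202 to 242, 297 to 462, 154 to 179 and 119 to 129 CPM, and the 8 platelet markers, with Gp9 at 0 counts in 11 of 12 libraries, 15.5 to 30.6, 73.5 to 107, 24.4 to 37.3 and 27.1 to 35.3 CPM. The 8 mast cell markers ran 51.1 to 114, 57.3 to 935, 92.0 to 126 and 45.7 to 61.5 CPM. These sums were mostly Kit in Con and UA+DSS (42.0 to 113 and 87.2 to 124 CPM) and Hdc in DSS 2 (887 CPM). The mast cell genes Cpa3, Mcpt4, Tpsb2 and Fcer1a were at 3.03 CPM or less in every library. Cma1 was 9.34 to 20.9 CPM in DSS+UA, 9.67 in DSS 1, 8.02 in Con 1 and 0 to 2.40 in the other libraries. Of the 7 mast cell markers tested, 3 were raised and 1 lowered in DSS against Con. In DSS+UA against Con, 2 were raised and 1 lowered. The 8 glial and neuronal markers ran 18 to 47.5, 62.5 to 79.5, 41.5 to 71.6 and 18.9 to 73.3 CPM. The part of these cells in the results was not tested.

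The libraries also differed in Hox genes, which are read in an order along the colon. A position score was taken as the mean log2 CPM of Hoxd10, Hoxd11, Hoxd12, Hoxd13 and Hoxb13, read toward the rectum, minus that of the 6 genes from Hoxb3 to Hoxb8, read toward the caecum. It was 5.53, -3.03 and -1.83 in Con, 3.10, 1.35 and 0.37 in DSS, -4.88, -5.70 and -4.16 in UA+DSS and 4.11, 4.47 and 5.06 in DSS+UA. Con 1 stood apart from the other Con libraries. The UA+DSS libraries had the 3 lowest scores and did not overlap with any other group. Every DSS+UA score was above every DSS score. In the 7 libraries with a score over 0, Con 1 among them, Ptger4 was 22.7 to 32.4 CPM, and in the other 5 it was 44.0 to 77.3 CPM. For Hpgd these were 60.9 to 168 and 185 to 574 CPM. Ptgs2 and Ptges had no such split, with the DSS libraries highest and Con 1 at 5.02 and 13.7 CPM.

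**Figure D4:**
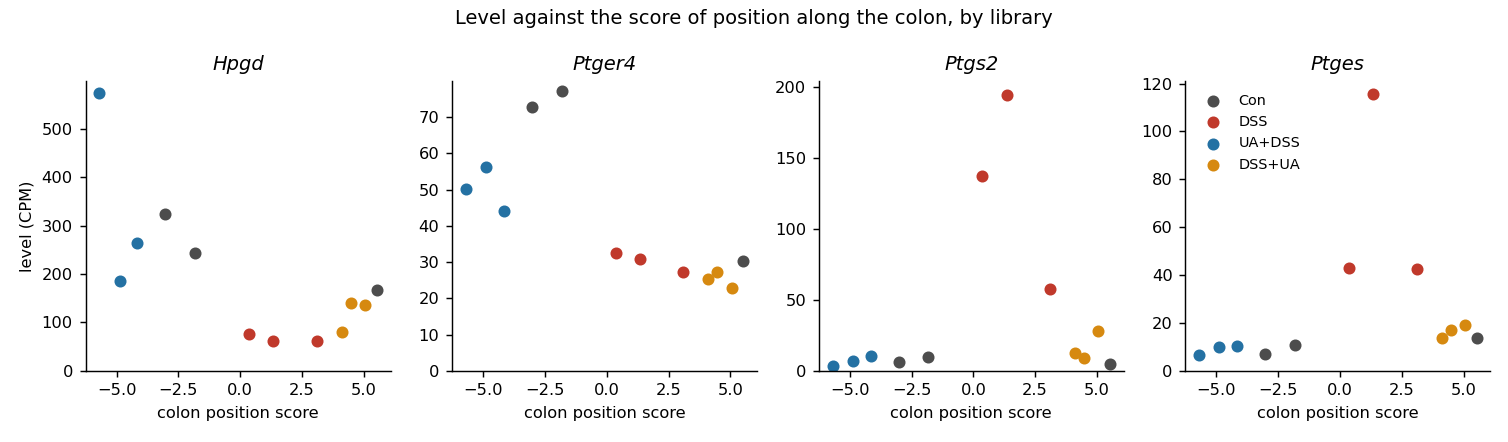
Level in CPM (vertical axis) of Hpgd, Ptger4, Ptgs2 and Ptges against the colon position score (horizontal axis, log2 units, higher toward the rectum) in each of the 12 libraries, coloured by group. The 7 libraries with a score over 0 have Ptger4 at 22.7 to 32.4 CPM and the other 5 at 44.0 to 77.3 CPM, while high Ptgs2 and Ptges are seen in the 3 DSS libraries.

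With the score as a covariate, the calls of DSS against Con held, at log2 fold changes of 4.30 for Ptgs2, 2.60 for Ptges, -1.70 for Hpgd and -0.67 for Ptger4 (largest edgeR adjusted p 0.0102). None of the 9 genes was called with it in UA+DSS against DSS, and 3 of all 17658 genes were. The log2 fold change was then -4.61 for Ptgs2 (SE 0.97, adjusted p = 0.0930), -2.38 for Ptges (SE 0.60, adjusted p = 0.105), 1.63 for Hpgd (SE 0.54, adjusted p = 0.152) and -1.61 for Ptger2 (SE 0.63, adjusted p = 0.193). In UA+DSS against DSS+UA, where 0 of all genes were called with the score, Ptger4 turned to -0.47 (SE 0.26). Hpgd and Ptgs1 were at 0.46 (SE 0.70) and 0.41 (SE 0.47), none of the 3 past the threshold. Ptges in DSS+UA against DSS stayed past it at -2.28 (SE 0.44, adjusted p = 0.0427), and Ptgs2 did not, at -2.77 (SE 0.70, adjusted p = 0.0696). The UA+DSS libraries share no part of the score's range with Con, DSS or DSS+UA, and the DSS+UA libraries share none with DSS. In these comparisons, the position sampled and ursolic acid, early or late, cannot be told apart for these genes.

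Of 34 symbols listed for other genes of prostanoid synthesis, transport and reception, 33 were matched and 30 tested. In DSS against Con, 4 were raised and 3 lowered, where 26.5% of all genes were called. Pla2g7, a phospholipase that cleaves platelet-activating factor, had the smallest p, with 12.9, 9.54 and 14.5 CPM in Con and 98.2, 293 and 56.7 CPM in DSS (log2 fold change 3.60, SE 0.52, edgeR adjusted p = 0.00250). Its DSS libraries were all above Con, and DSS 2 was the highest. Ptgir, the prostacyclin receptor, rose from 1.55, 1.28 and 2.46 to 4.23, 7.11 and 6.44 CPM without overlap (1.75, SE 0.44, adjusted p = 0.0162). Cbr1, a carbonyl reductase that acts on prostaglandin E, fell from 291 to 132 CPM (-1.14, SE 0.31, adjusted p = 0.0220). The median log2 fold change of the list was 0.07.

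For UA+DSS against DSS, where 18.7% of all genes were called, 1 gene of the list was raised and 5 were lowered, among them Pla2g7 (log2 fold change -2.69, SE 0.50), Abcc4, which exports prostaglandins (-0.91, SE 0.23), and Ptgr1, a prostaglandin reductase (-0.85, SE 0.21), with edgeR adjusted p of 0.0113, 0.0211 and 0.0223. DSS+UA had 2 lowered against DSS (7.54% of all genes called), Pla2g7 (-2.36, SE 0.49, adjusted p = 0.0267) and Ptgir (-2.03, SE 0.45, adjusted p = 0.0296), while Pla2g10, a secreted phospholipase, had 1.53 (SE 0.42, adjusted p = 0.0508). Between UA+DSS and DSS+UA, 1 was raised and 5 lowered in UA+DSS (16.8% of all genes called), with Ptgr1 (-1.31), and the phospholipases Pla2g2a (-3.31) and Pla2g4f (-4.20) at the smallest p. None of the 30 was called in UA+DSS against Con, and in DSS+UA against Con 2 were raised, Pla2g2a (3.14, adjusted p = 0.0129) and Ptges3, a synthase of prostaglandin E and chaperone partner (0.71, adjusted p = 0.0485). The medians of the list over these comparisons lay between -0.08 and 0.18.

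The other prostanoid receptors were low. Ptger1 ran from 0.680 to 1.80 CPM and Ptger3 from 3.11 to 12.9 CPM over the 12 libraries, and neither passed the test in any comparison. The thromboxane receptor gene Tbxa2r, at 1.21 to 5.11 CPM, did not pass either. Ptgfr, the receptor of prostaglandin F, was 0.632, 0.557 and 0.665 CPM in DSS+UA and 1.73, 2.50 and 1.44 in UA+DSS, with no overlap and a log2 fold change of 1.60 (SE 0.50, edgeR adjusted p = 0.0504). Among the receptors, Ptgir, Ptger2 and Ptger4 were therefore the ones with a call. The prostaglandin D receptor genes Ptgdr and Ptgdr2 had at most 10 and 5 counts in a library and were not tested.

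**Figure D5:**
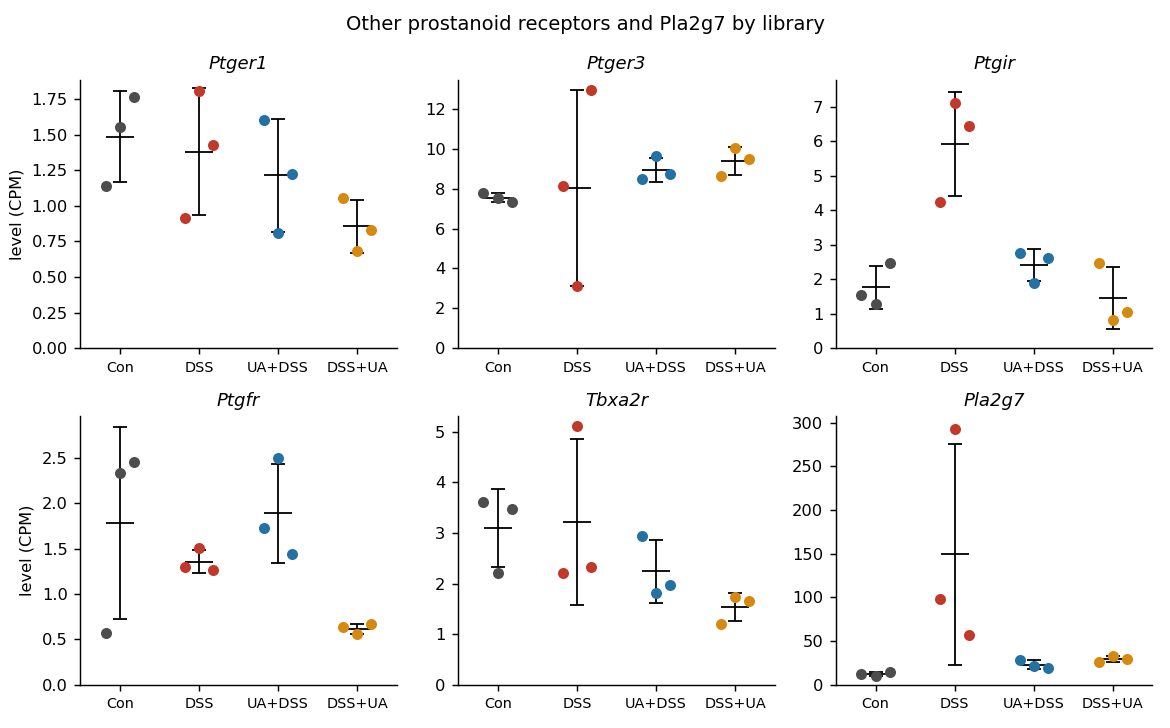
Level in CPM (vertical axis) of 5 other prostanoid receptors and Pla2g7 in each library, by group, with the mean and SD. Ptgir and Pla2g7 are highest in the 3 DSS libraries, and Ptger1 and Ptger3 overlap between DSS and Con.

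Lipoxygenase and leukotriene genes draw on the same arachidonic acid. Of 16 such genes 13 were tested, and 4 were raised and 0 lowered in DSS against Con, where 13.9% of all genes were raised and 12.6% lowered. Ggt5, which trims leukotriene C, rose from 6.61 to 38.7 CPM (log2 fold change 2.55, SE 0.29, edgeR adjusted p = 0.00117). Ltb4r1, a leukotriene B receptor, was 0.983, 1.05 and 0.749 CPM in Con and 3.37, 46.0 and 5.28 CPM in DSS, and Alox5ap, the partner of 5-lipoxygenase, 3.62, 3.99 and 3.85 against 19.5, 278 and 19.0 CPM. Both were raised (4.28, SE 0.88, and 4.78, SE 1.00, adjusted p = 0.00732 and 0.00825) and highest in DSS 2. Against DSS, 5 of the 13 were lowered and 0 raised in UA+DSS (10.5% and 8.21% of all genes), Alox5ap (-4.94), Ggt5 (-1.19) and Ltb4r1 (-3.71) with the smallest p. DSS+UA had 2 lowered against DSS, Ggt5 (-1.44) and Alox5 (-3.54), and Lta4h, which makes leukotriene B, was raised (0.66, SE 0.16, adjusted p = 0.0343). Between UA+DSS and DSS+UA, 2 were lower in UA+DSS. In DSS+UA against Con 2 were raised and 1 lowered, and in UA+DSS against Con none was called. Ptgr1 was in this list and in that of the other prostanoid genes. It was counted in both, as lowered in UA+DSS against DSS and against DSS+UA.

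The genes whose log2 CPM ran most like each of the 9 over the 12 libraries, by Pearson's r, are given as a description, since the libraries share their groups and position. For Ptgs2 these were Gm20796 (r = 0.97), Acsl4 (0.97) and Inhba (0.96), for Ptges Wdfy2 (0.99), Emilin2 (0.98) and Parp8 (0.98), and for Hpgd Nudt4 (0.98), Tuft1 (0.98) and Sult1d1 (0.97). Acsl4 joins arachidonic acid to coenzyme A, and Inhba codes for an activin subunit. For Ptger4 they were Mier3 (0.97), Dixdc1 (0.95) and Adamts18 (0.94), for Ptger2 Ogfrl1, Sh3bp5 and Bnip2 (each 0.94), and for Ptgs1 Adap2 (0.95), Gli3 (0.94) and Msrb3 (0.93). Gli3 is a transcription factor of hedgehog signalling. Ptgis ran most like Lrp3 (0.94), Lama2 (0.93) and Islr (0.93), Tbxas1 like Rab7b (0.95), Tmem86a (0.93) and Cd200r1 (0.93), and Pla2g4a like Slc38a10 (0.87), Alkal1 (0.85) and Acbd3 (0.84).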

How the data were processed

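Colon RNA of 12 mice was sequenced. The authors checked reads with FastQC and mapped them to GRCm38, with counts credited to HISAT2 (Cuffdiff also stands in the submitters' processing notes). The deposited files hold whole-number counts for each Ensembl gene, without normalization by the authors. The sources used here give no versions, annotation, strand use or handling of shared reads. RNA was extracted with Trizol per the labels and with RNeasy per the methods.

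The 10 genes and all lists were chosen with earlier results of these data known. Of 54532 genes, 54409 carry a name in GENCODE M21, and the 123 without one hold 0.0297% of the counts. Of these, filterByExpr of edgeR 4.0.16 (R 4.3.3) left 17658 genes (99.8% of counts), with TMM factors of 0.871 to 1.09, and fitted 1 robust quasi-likelihood model without covariates to the 4 groups (biological coefficient of variation 0.352). The fit was tested on simulated data. Log2 CPM used a prior count of 2, and per-length levels used merged exons. Ratios, scores and motif searches (motifs written from general knowledge with these genes in view) used Python 3.11.15, pandas 2.3.3 and numpy 2.4.6, and plots used matplotlib 3.10.9. Named genes were the 10, other prostanoid receptors, the 3 smallest p of each pathway list, the 3 most alike genes by Pearson's r, overlapping genes and markers.

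Alternatives were DESeq2 1.42.0, limma-voom (limma 3.58.1), scaling by library size or by upper quartile, dropping the filter or asking for 10 counts in each library, a fit of the 2 groups compared, a replicate block, the position score as covariate and leaving out each library. Shares of 50-base stretches were counted on the reference transcripts. Libraries are separate animals, and replicates differed by more than counting noise. The 8 pancreatic markers served to mark DSS 3. No batch is given in the labels. The result for 1 marker gene is not reported here.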

Additional observations from a re-analysis of the deposited data

Results flagged for a closer look

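Of the 9 tested genes, 3 differed between the colons given ursolic acid before and after the start of DSS, by a test of that difference. Over all genes, 16.8% were called by that test, and 45.3% had no overlap of the 2 groups, as had 4 of the 9. The log2 fold change of UA+DSS against DSS+UA was 0.80 for Ptgs1 (SE 0.24, edgeR adjusted p = 0.0438), 1.53 for Hpgd (SE 0.40, adjusted p = 0.0270) and 1.00 for Ptger4 (SE 0.28, adjusted p = 0.0354), each higher in 3 of 3 UA+DSS libraries than in every DSS+UA library. The call of Hpgd was lost without UA+DSS 2 (0.92, adjusted p = 0.114) or DSS+UA 1, 2 or 3 (1.29, 1.65 and 1.62, adjusted p = 0.0870, 0.0528 and 0.0736), and that of Ptger4 without any 1 of the 6 libraries of these groups (0.91 to 1.07, adjusted p = 0.0596 to 0.120) and by limma-voom (0.99, adjusted p = 0.0505). For Ptgs1 it was lost without DSS 1, DSS 3, DSS+UA 1, DSS+UA 3 or any UA+DSS library (0.68 to 0.91, adjusted p = 0.0578 to 0.153). With the position score as covariate, none of the 3 was called, where 0 of all 17658 genes were, against 2961 without it. Ptger4 then turned to -0.47 (edgeR adjusted p = 0.470). The position scores of the 2 groups do not overlap either, at -5.70 to -4.16 and 4.11 to 5.06, and the position sampled and the time of treatment cannot be told apart.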

How the results depend on the processing

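Of 1134 alternative values for the 54 results of the 9 genes, 1019 kept their direction and side of the threshold, 65 lost the call, 16 gained one and 34 changed sign. Of the latter, 0 were past the threshold in the alternative, and 1, Ptger4 in UA+DSS against DSS+UA, had been called. In DSS against Con, Ptgs2, Ptges and Hpgd were called under all 21 alternatives (largest adjusted p 0.0171, 0.0286 and 0.0315). These 3 genes lost the call in UA+DSS against DSS only with the position score as covariate. The number of the 9 genes called in UA+DSS against DSS was 0 with the score, against 4, where 3 and 3300 of all genes were called. In DSS+UA against DSS it was 3 (1331 of all genes). It was 5 by DESeq2 (3055), 1 without a low-count filter (882), 1 with only the 2 groups compared (430) and 1 with the score (199). Without 1 library it was 0 to 3, with 1 without DSS 2 (397) and 0 without DSS+UA 1, 2 or 3 (957, 142 and 25). For UA+DSS against DSS+UA it was 3 (2961 of all genes), with 0 under the score (0 of all genes) and 0 to 4 without 1 library. It was 0 without UA+DSS 2, DSS+UA 1 or DSS+UA 3 (560, 1700 and 931 of all genes). Without UA+DSS 1, UA+DSS 3 or DSS+UA 2 it was 1 (1442, 1656 and 2098 of all genes). For DSS+UA against Con it was 1 (3193 of all genes), with 2 by DESeq2 (4540) and 0 with the score (2176). Without 1 library it was 0 to 2, with 0 without Con 3 or DSS+UA 3 (1563 and 1062 of all genes) and 2 without UA+DSS 2 (2776). The cause was not tested.

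Deviations from the group mean were correlated between libraries of different groups. Same-numbered pairs had r of -0.216 to 0.187 (median 0.041, 5 of 18 pairs over 0.1). Pairs with different numbers had r of -0.289 to 0.240 (median -0.023, 9 of 36 pairs over 0.1). With 3 libraries per group, these values cannot decide whether the replicate numbers pair the samples. With the replicate block, 4, 4, 2, 2, 0 and 2 genes were called in DSS against Con, UA+DSS against DSS, DSS+UA against DSS, UA+DSS against DSS+UA, UA+DSS against Con and DSS+UA against Con. Without it, 4, 4, 3, 3, 0 and 1 were called. Over all genes the calls in that order were 4373, 3151, 552, 2998, 1 and 2920 with the block and 4688, 3300, 1331, 2961, 1 and 3193 without it.

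Signs changed as follows. Pla2g4a in UA+DSS against DSS was 0.0096 by limma-voom and 0.027 with the replicate block, and Ptger4 -0.28 with the score. Pla2g4a in DSS+UA against DSS was -0.077 with library size alone and Ptger4 0.19 with the score. Tbxas1 in UA+DSS against DSS+UA was 0.19 and Ptger4 -0.47 with the score. For UA+DSS against Con, Pla2g4a was -0.16, Ptges 0.22 and Hpgd -0.065 with the score, and Ptgis 0.024 by limma-voom. Without 1 library, Pla2g4a ran from -0.17 to 0.23 in DSS against Con, -0.13 to 0.26 in UA+DSS against DSS, -0.040 to 0.35 in DSS+UA against DSS, -0.22 to 0.079 in UA+DSS against DSS+UA and -0.027 to 0.26 in UA+DSS against Con. Ptgs1 ran from -0.21 to 0.0017 in UA+DSS against DSS. Tbxas1 ran from -0.56 to 0.52 in UA+DSS against DSS+UA, -0.037 to 0.53 in UA+DSS against Con and -0.31 to 0.78 in DSS+UA against Con. Ptger2 ran from -0.34 to 0.017 in UA+DSS against DSS+UA and -0.41 to 0.086 in DSS+UA against Con. In UA+DSS against Con, Ptgs2 ran from -0.48 to 0.31, Ptgis from -0.30 to 0.33 and Hpgd from -0.12 to 0.78.

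Over all genes, library size alone moved the median log2 fold change of DSS+UA against DSS from 0.02 to -0.11 and the calls from 448 raised and 883 lowered to 140 and 1003. For DSS+UA against Con, 1613 were raised and 1580 lowered, and 1192 and 1880 with upper-quartile factors. Levels of a few CPM, as for Ptger2, Tbxas1 and Ptgis, rest on 27 to 240 counts per library, and a difference that missed the threshold there is not shown to be absent.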
